A study of Mus musculus with 6 samples.

Results

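Vascular smooth muscle cells carrying the NG2 lineage label were the cells assigned to cluster 3 in the annotation that came with the NG2 counts. They numbered 1022 of the 10455 NG2-tdT+ cells and of the 17033 cells in the 6 libraries of the series. Of these, 503 came from the naïve library, 242 from the physical injury library and 277 from the ischemic injury library.

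All 3 libraries were made from NG2-Cre-ERT2/Ai14-flx mice aged 3 to 4 months, in which a tamoxifen-dependent Cre under the Cspg4 (NG2) promoter switches on the red reporter tdT. The naïve group had no injury. The physical injury group had saline injected into the cerebral cortex, and the ischemic injury group had the vasoconstrictor endothelin-1 with L-NAME, an inhibitor of nitric oxide synthase (ET-1/L-NAME). Injured tissue was taken 3 days after injection, in mice treated with tamoxifen 7 days before injury, and the naïve mice also received tamoxifen before their tissue was taken. Live tdT+/DAPI- cells of pooled animals were sorted, and 1 droplet library was made per condition, so that animals and conditions cannot be told apart and no test between conditions was possible. The label marks cells in which the Cspg4 promoter was active at tamoxifen treatment, and their descendants. It is not specific to smooth muscle or to pericytes. Values are UMI counts summed over the smooth muscle cells of a library and given as counts per 1000000 UMIs of these cells (CPM). Intervals are 95% exact intervals (Poisson for CPM, Clopper-Pearson for shares) and cover counting error only.

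Smooth muscle cells wrap arteries, arterioles and veins and set vessel diameter. Calcium entry and release activate myosin light chain kinase, and smooth muscle myosin then pulls on actin filaments, while nitric oxide acts through cGMP to relax the cell. The genes of this apparatus are switched on by serum response factor (SRF) together with its coactivator myocardin, through a DNA element called the CArG box. Injured smooth muscle in larger arteries is known to lose contractile transcripts and gain matrix, migration and inflammatory ones, a shift called phenotypic modulation.

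The promoters below are examples of contractile genes that hold the element, which most promoters of the list did not. They are RefSeq sequences of GRCm38.p6, from 250 bases before to 50 bases after the gene start, read 5′ to 3′ on the strand of the gene. Capitals mark CArG boxes, whose pattern is the same on both strands. In Acta2 (chr19:34255324-34255623, minus strand) both boxes have 1 C or G among the 6 inner bases, where the strict element has only A or T. In Myl9 (chr2:156775214-156775513, plus strand) the first box is strict and the second has 1 such base, and in Vcl (chr14:20929148-20929447, plus strand) the single box is strict.
Acta2: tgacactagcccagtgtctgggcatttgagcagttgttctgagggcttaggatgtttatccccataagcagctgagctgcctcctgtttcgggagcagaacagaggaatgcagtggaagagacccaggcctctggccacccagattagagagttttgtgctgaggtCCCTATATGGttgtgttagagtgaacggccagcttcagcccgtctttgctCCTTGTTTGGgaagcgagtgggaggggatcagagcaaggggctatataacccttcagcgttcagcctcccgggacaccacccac
Myl9: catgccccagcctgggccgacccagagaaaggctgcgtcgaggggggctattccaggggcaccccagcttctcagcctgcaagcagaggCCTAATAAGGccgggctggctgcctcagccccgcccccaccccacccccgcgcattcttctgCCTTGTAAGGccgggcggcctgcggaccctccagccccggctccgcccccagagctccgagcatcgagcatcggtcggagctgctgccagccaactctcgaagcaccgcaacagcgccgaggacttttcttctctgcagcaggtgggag
Vcl: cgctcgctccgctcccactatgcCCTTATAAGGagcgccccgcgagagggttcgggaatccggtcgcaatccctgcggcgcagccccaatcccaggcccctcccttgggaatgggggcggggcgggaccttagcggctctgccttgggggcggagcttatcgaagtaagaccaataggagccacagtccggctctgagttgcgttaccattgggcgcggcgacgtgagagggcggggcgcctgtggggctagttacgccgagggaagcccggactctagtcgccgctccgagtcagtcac

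Of the 20 genes of the contractile list, 17 had a promoter in the RefSeq table. A strict box was in 3 of their 20 promoters (Myl6, Myl9 and Vcl), against 1.63% of all 32851 promoters. With 1 C or G allowed, a box was in 4 of the 20, against 9.98% of all. Neither form was found in the promoter window of Cnn1, and Tagln and Myh11 were among the genes without an entry. Of the 15 genes most specific to the cluster, 9 had a promoter in the table, none with a strict box and 1 (Pdlim3) with the wider form. These are matches of letters, not measured binding.

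The cluster carried the defining markers of smooth muscle in each library. The 6 markers (Acta2, Tagln, Myh11, Pln, Cnn1 and Myocd) summed to 26908, 27591 and 25290 CPM in naïve, physical injury and ischemic injury cells, in that order. In the pericytes of the same libraries (clusters 0, 1 and 2) they summed to 123, 119 and 120 CPM. No smooth muscle cell lacked a UMI of all 6 markers, whereas 72.9%, 70.3% and 74.8% of pericytes did. All 6 markers were detected together in 22.7%, 37.6% and 22.4% of the smooth muscle cells. Their median mitochondrial share was 5.0%, 5.74% and 4.01% of UMIs. Their median depth was 7909, 10167 and 8325 UMIs, and that of the pericytes was 3821, 4684 and 4202. The cells were clustered on these same transcripts, so these levels describe the cluster and do not test it.

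Among the markers, the levels in the 3 libraries lay close together except for calponin. Acta2, smooth muscle alpha-actin (19:34241090-34255590 in GRCm38), measured 12419 CPM (12308 to 12530) in naïve cells, 12522 (12381 to 12663) after physical and 11679 (11540 to 11819) after ischemic injury. Myh11, the smooth muscle myosin heavy chain, measured 3871, 4003 and 3662 CPM in the same order. Pln, phospholamban, which restrains the calcium pump of the sarcoplasmic reticulum, measured 960, 919 and 1031 CPM. The lowest and highest library thus differed by little in each of these 3 genes. Cnn1, calponin 1, an actin-binding protein of contractile cells, measured 137 CPM (125 to 149), 233 (214 to 253) and 135 (121 to 151), and the level after physical injury was above the intervals of the other 2 libraries. After every cell was thinned to 2000 UMIs, 17.2%, 27.8% and 17.8% of the smooth muscle cells held a Cnn1 UMI (30.4%, 45.5% and 31.0% unthinned), against 0.132%, 0.0938% and 0.102% of pericytes. Myocd, the SRF coactivator myocardin, measured 227, 259 and 211 CPM in smooth muscle and was below 1 CPM in pericytes of each library.

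**Figure D1:**
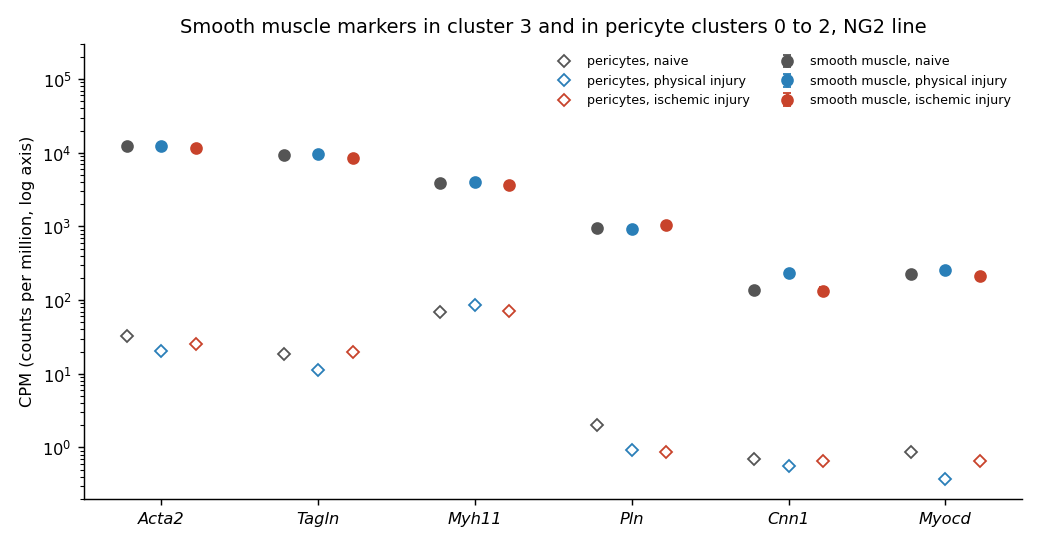
CPM (log axis) of the 6 smooth muscle markers in the smooth muscle cells (filled circles) and pericytes (open diamonds) of the naïve, physical injury and ischemic injury libraries; bars are 95% exact Poisson intervals of the smooth muscle values and are mostly smaller than the symbols. The smooth muscle values of each marker lie far above the pericyte values and, except for Cnn1, close together, and Cnn1 is higher after physical injury (233 CPM) than in the naïve (137 CPM) and ischemic (135 CPM) libraries.

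Against the highest other cluster of at least 50 cells in the same library, the 15 most specific genes by the smallest ratio over the libraries were Pln, Pdlim3, Cnn1, Myocd, Smim5, Tesc, Xirp1, Myh11, Pi15, Crispld2, Sh3bgr, Sncg, Lrrc10b, Spint2 and Gm34829. Their smallest log2 ratios ran from 6.19 for Pln to 4.18 for Gm34829. Pdlim3, a LIM protein that binds alpha-actinin, measured 445, 375 and 372 CPM in smooth muscle and no more than 5.30 CPM in any such cluster. Xirp1, an actin-binding repeat protein of muscle, measured 57.9, 57.7 and 57.5 CPM. Tesc, the calcium-binding protein tescalcin, measured 137, 152 and 126 CPM. Acta2 was not among the 15, because cluster 8 held 281, 2167 and 1062 CPM of it.

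The transcript whose promoter drives the label, Cspg4, measured 382, 348 and 348 CPM in smooth muscle and 799, 761 and 765 CPM in pericytes. Smooth muscle cells made up 11.7% (10.7% to 12.7%) of the sorted naïve cells, 9.44% (8.34% to 10.6%) of those after physical and 7.72% (6.87% to 8.65%) of those after ischemic injury. As a share of the mural clusters (0, 1, 2, 3, 8 and 10) the naïve library was instead the lowest, with 12.7% (11.7% to 13.8%), 16.7% (14.8% to 18.7%) and 16.8% (15.1% to 18.7%). Which cells enter a library is set by the sort for tdT, so neither share is a share of the tissue. With the filters of the study's methods applied again the shares of sorted cells were 9.49%, 10.2% and 8.37%, so that the order of the naïve and physical injury libraries turned.

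Within the cluster, the cells formed a range. The 6 markers took between 0.0746% and 7.03% of the UMIs of a naïve cell, with a median of 2.48%. Cells were ranked by this share within each library, and equal groups from each end (167, 80 and 92 cells in the 3 libraries), called low-marker and high-marker cells here, were compared for genes outside the 6 markers, which were also left out of their totals. The groups cut a continuous range: in the naïve library 48 cells lay within 10% of the lower edge and 72 within 10% of the upper edge. The low-marker cells were also shallower, with medians of 5194, 7718 and 6780 UMIs, against 8633, 10258 and 9440 in high-marker cells, and had less mitochondrial RNA, with medians of 2.89%, 4.33% and 3.31% against 5.73%, 6.38% and 4.45%. Of 6286 genes, 113 (1.80%) were at least 2-fold higher in high-marker cells in all 3 libraries and 249 (3.96%) at least 2-fold lower. The ranking and the clustering both used these cells, so the values are a description.

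The contractile end of the range carried more than its markers. Of the 16 other contractile genes kept, 15 were higher in high-marker cells in all 3 libraries, with medians of 1.18, 1.04 and 1.15 on the log2 scale (median of all genes -0.13 in each library). Of all 6286 genes, 1292 (20.6%) were higher and 2399 (38.2%) lower in all 3 libraries. Caldesmon, Cald1, was the exception, with -0.03, -0.10 and 0.04. Tpm2, beta-tropomyosin, measured 1699 CPM in low-marker and 5773 in high-marker naïve cells, and Kcnma1, the pore of the BK potassium channel that counters constriction, 25.2 and 324 CPM. Some members of other lists lay at this end too, and their log2 ratios follow in the order of the libraries. Eln, elastin, the elastic fibre protein of arterial walls, had 4.23, 3.64 and 2.77. Col3a1, a fibrillar collagen, had 3.36, 3.36 and 2.47. Ramp1, which forms the receptor for the dilator peptide CGRP with the receptor Calcrl, had 2.54, 2.07 and 2.65. The medians of the lists they belong to differed in sign. Interstitial matrix genes had medians of 0.43, 0.59 and 0.26 (4 of 7 higher in all 3 libraries), whereas basement membrane genes had -0.78, -0.45 and -0.18 (8 of 14 lower), vasoactive and cGMP genes -0.51, -0.65 and -0.27 (10 of 15 lower) and ion channel genes -0.70, -0.49 and -0.83 (8 of 12 lower). Eln, Col3a1 and Ramp1 came from these lists and, like Igfbp4, an insulin-like growth factor binding protein (5.06, 3.86 and 3.92), and Ptgis, prostacyclin synthase (3.24, 3.95 and 3.79), were picked out after their values were seen.

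The other end of the range held genes shared with pericytes. All 10 pericyte markers kept were lower in high-marker cells in each library, against 38.2% of all 6286 genes. Their medians were -2.28, -2.61 and -2.28 on the log2 scale. Per cell, the pericyte markers took a median of 1.76%, 1.42% and 1.44% of UMIs in low-marker cells, 0.155%, 0.109% and 0.202% in high-marker cells, and 3.95%, 3.85% and 3.84% in pericytes. The low-marker cells therefore lay between, and they kept a median share of 1.13%, 1.26% and 1.28% for the smooth muscle markers, whose median in pericytes was 0. Rgs5, a regulator of G-protein signalling typical of pericytes, measured 8316 CPM in low-marker and 1138 in high-marker naïve cells. Abcc9, a subunit of the ATP-sensitive potassium channel of pericytes, measured 73.4 and 10.1 CPM there, against 1509 CPM in naïve pericytes. Pdgfrb, the PDGF receptor of mural cells, measured 776 and 233 CPM.

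Some genes of this end stood out by size. The following were picked out after their values were seen. Car4, a membrane carbonic anhydrase, measured 714, 547 and 483 CPM in the low-marker cells of the naïve, physical injury and ischemic injury libraries and 11.6, 4.91 and 13.0 CPM in the high-marker cells. Grm7, a metabotropic glutamate receptor, had log2 ratios of -5.87, -7.13 and -4.79. Casq2, the calcium store protein calsequestrin, which was in the calcium handling list, had -3.68, -2.95 and -2.77. The 12 genes of that list kept outside the 6 markers had medians of -0.28, -0.23 and 0.10. Of these, 5 were lower and 3 higher in all 3 libraries, against 38.2% and 20.6% of all genes.

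**Figure D2:**
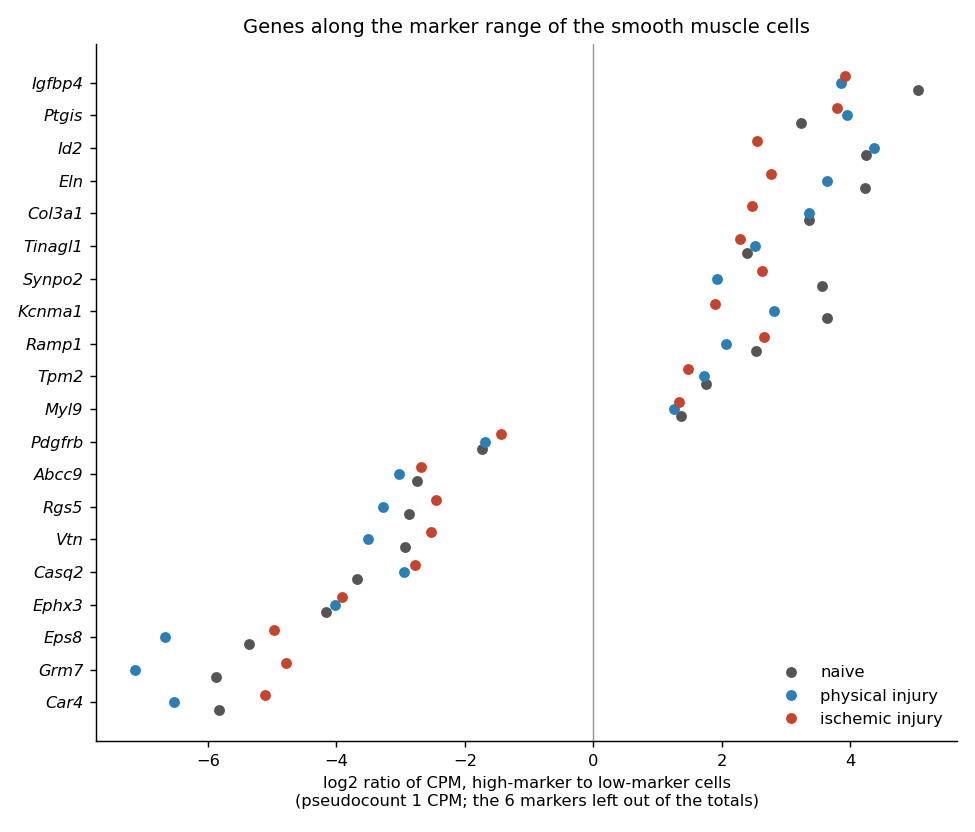
log2 ratio of CPM between high-marker and low-marker smooth muscle cells, for 20 genes, 1 point per library. All 3 points of each gene lie on the same side of 0; Car4 runs from -6.53 to -5.11 and Igfbp4 from 3.86 to 5.06.

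In a separate clustering of the naïve libraries alone, deposited with them, the 503 naïve cells fell mainly into 2 clusters. Its smooth muscle cluster 4 held 393 of them and its cluster 5 held 108 (21.5%), and 92 of these 108 were low-marker cells. These numbers are those of the annotation used here and are not the cluster numbers of the study's naïve figure. The 108 cells had 5174 CPM of Acta2 against 13352 in the 393, and 16.0 CPM of Cnn1 against 151. The order was opposite for Car4, with 1139 CPM in the 108 cells against 97.7, and for Casq2, with 737 against 93.6. The other 226 cells of naïve cluster 5, which the NG2 table did not call smooth muscle, had 199 CPM of Acta2 and 1293 CPM of Car4. The 108 cells thus held Car4 near the level of those neighbours and Acta2 far above it. They were shallower, with a median of 3718 UMIs against 8661.

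The summed profiles of smooth muscle cells after either injury lay close to that of naïve cells. A gene was kept when its mean over the 3 libraries was at least 20 CPM (6292 genes), and ratios are log2 of CPM plus a pseudocount of 1 CPM. After physical injury, 15 genes (0.238%) were at least 2-fold higher and 8 (0.127%) at least 2-fold lower than in the naïve library. After ischemic injury, 19 (0.302%) were at least 2-fold higher and 5 (0.0795%) lower. Between ischemic and physical injury, 13 (0.207%) were higher and 18 (0.286%) lower. The medians over all kept genes were -0.03, -0.01 and 0.03. For comparison, among 5271 genes at 20 CPM or more in smooth muscle, pericytes and endothelial cells alike, 0.152% were at least 2-fold higher and 0.114% lower in smooth muscle after physical injury, and 0.152% and 0.304% in pericytes. After ischemic injury these shares were 0.209% and 0.0190% in smooth muscle and 0.341% and 0 in pericytes, whose totals were deeper. In endothelial cells (cluster 5) the shares were larger, 1.23% and 0.740% after physical and 1.14% and 0.759% after ischemic injury, against a naïve library with 101 of these cells. Of the genes at least 2-fold higher than in the naïve library, 8 of 15 and 6 of 19 were under 20 CPM in the naïve library and were kept only through the libraries in which they were high. Of the genes at 20 CPM or more in both libraries compared, 0.117% and 0.218% were at least 2-fold higher after physical and ischemic injury.

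The 20 contractile genes, all kept, lay within 2-fold of the naïve library after either injury, as did 99.6% of all 6292 genes kept in each comparison, so this is not particular to them. The cluster was formed on such transcripts, so a cell that lost them could lie in another cluster. These levels therefore cannot show whether smooth muscle cells lost contractile transcripts. Their median log2 ratio was 0.11 after physical and -0.05 after ischemic injury, with 18 and 9 of 20 above 0, against 44.0% and 47.3% of all genes kept. Mylk, the kinase that activates myosin, measured 1895, 2071 and 2008 CPM in the naïve, physical and ischemic injury libraries. Flna, the actin cross-linker filamin A, measured 1010, 1235 and 1189 CPM. Des, the intermediate filament desmin, measured 766, 649 and 693 CPM. These 3 genes differed from the naïve library by less than 2-fold in different directions. Actg2, smooth muscle gamma-actin, was the member that differed most between the injuries, at 22.1 CPM (17.7 to 27.3) in the naïve library, 43.7 (35.7 to 52.8) after physical and 11.2 (7.35 to 16.5) after ischemic injury. The log2 ratio of ischemic to physical injury was -1.87, and 35 of 242 cells held the 106 UMIs of the physical injury library, 16 of them in 1 cell.

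The genes of calcium and tone were also within 2-fold of the naïve library, which again held for 99.6% of all genes kept. All 13 calcium handling genes kept were (medians -0.01 and -0.14), as were the 12 ion channel and gap junction genes (-0.05 and -0.16) and the 15 genes of vasoactive receptors and cGMP signalling (-0.11 and -0.08). Atp2a2, the calcium pump that phospholamban restrains, measured 1224, 983 and 1082 CPM. Ednra, the receptor through which endothelin-1 constricts vessels, measured 261 CPM (245 to 277), 224 (205 to 243) and 258 (238 to 279). Gucy1a1, a subunit of the guanylate cyclase that nitric oxide activates, measured 653, 613 and 562 CPM. Ednrb, the other endothelin receptor, fell below the minimum and measured 2.31 CPM (1.06 to 4.39), 8.65 (5.35 to 13.2) and 10.4 (6.65 to 15.4), from 9, 21 and 24 UMIs. Ednra was thus at nearly the same level in the naïve and ischemic libraries, whereas Ednrb was lowest in the naïve library. Kcnab1, a potassium channel beta subunit, measured 684, 1024 and 779 CPM, and Kcnma1 191, 218 and 130 CPM. Slc8a1, the sodium-calcium exchanger, measured 322, 319 and 243 CPM.

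Notch signals and transcription factors that keep mural identity were within 2-fold too, like nearly all genes kept, and their counts are read against the 56.0% and 52.7% of all genes kept that lay below 0 after physical and ischemic injury. The 9 Notch genes kept had medians of -0.23 and -0.09, and 7 of 9 lay below 0 in each comparison. Notch3, the Notch receptor of mural cells, measured 800, 618 and 670 CPM. Of 16 mural transcription factors kept, 8 and 12 lay below 0, with medians of -0.04 and -0.11. Klf2, a factor induced by blood flow in vessels, measured 1457 CPM (1419 to 1495), 1376 (1330 to 1424) and 951 (911 to 991), and only the ischemic library lay apart. In pericytes Klf2 measured 239, 80.4 and 209 CPM.

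**Figure D3:**
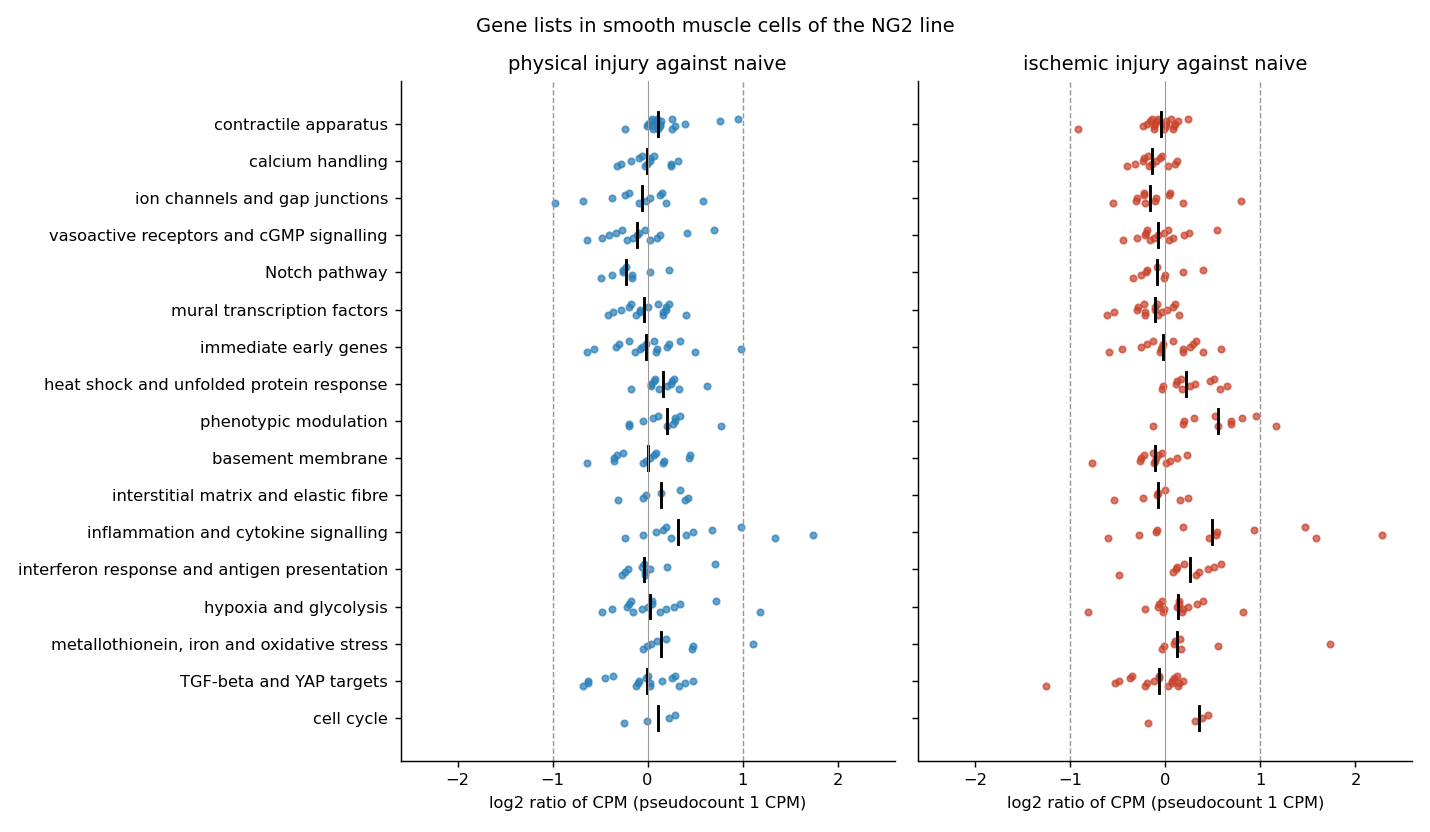
log2 ratio of CPM for the kept genes of 17 lists in smooth muscle cells after physical injury (left) and ischemic injury (right), against the naïve library; each point is a gene, black bars are list medians and dashed lines mark 2-fold. The contractile list is centred near 0 in both panels (0.11 and -0.05). The median furthest above 0 after ischemic injury is that of phenotypic modulation (0.55). That of inflammation (0.49) includes Il6 and Tnfaip3, kept only through the injury libraries. Without this pair it is 0.32, below that of cell cycle (0.35).

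Some inflammation and cytokine genes were higher after injury. Of the 12 kept, 2 were at least 2-fold higher after physical injury and 3 after ischemic injury (0.238% and 0.302% of all genes kept), with medians of 0.32 and 0.49. Il6 and Tnfaip3, counted in both, were under 20 CPM in the naïve library and passed the minimum only through the injury libraries, so the counts are no support for the list. Without the pair, the count was 0 after physical and 1 (Cxcl1) after ischemic injury, and the medians were 0.22 and 0.32. Il6, the cytokine interleukin-6, measured 6.43 CPM (4.16 to 9.49) in the naïve library, 23.9 (18.1 to 30.9) after physical and 35 (27.8 to 43.5) after ischemic injury. Few cells carried it: 17 of 277 ischemic cells held all 81 UMIs, and 1 cell held 18 of them. Tnfaip3, an inhibitor of NF-kappaB signalling, measured 9.77, 26.4 and 31.1 CPM. Nfkbia, which holds NF-kappaB in the cytoplasm, measured 400 CPM (380 to 420), 640 (608 to 672) and 764 (729 to 800). Cxcl1, a chemokine for neutrophils, measured 41.1, 82.4 and 115 CPM. These 4 of the 12 genes kept were lowest in the naïve library and highest after ischemic injury. The share of all genes kept in this order was not counted. In pericytes Il6 was at 0, 0 and 0.216 CPM, Nfkbia at 143, 163 and 277 CPM and Cxcl1 at 31.7, 20.2 and 97.2 CPM. Other members did not follow, among them Socs3 (798, 678 and 753 CPM) and Cxcl12 (32.7, 36.7 and 21.2 CPM).

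Phenotypic modulation had the highest median of the 17 lists after ischemic injury. Of its 20 genes 11 were kept, 10 of them above 0 after ischemic injury, with a median of 0.55, and 8 after physical injury, with a median of 0.20. Of all genes kept, 47.3% and 44.0% lay above 0 in these comparisons. After ischemic injury 1 of the 11 was at least 2-fold higher, against 0.302% of all genes kept. That gene was Thbs1, the matrix protein thrombospondin-1, at 123 CPM (112 to 135), 149 (134 to 165) and 277 (256 to 299). Mgp, matrix Gla protein, an inhibitor of vessel calcification, measured 2264 CPM (2217 to 2312), 2188 (2129 to 2247) and 4370 (4285 to 4456). S100a11 measured 555, 640 and 899 CPM, and the galectin Lgals1 measured 467, 570 and 669 CPM. Thbs1, S100a11 and Lgals1 were thus lowest in naïve and highest in ischemic cells. Vim, vimentin, was the member below 0, at 2689, 2901 and 2453 CPM. The list median in pericytes was 0.17 and 0.50. Between high-marker and low-marker smooth muscle cells the list had median log2 ratios of 0.62, 0.82 and 0.17, against -0.13 for all genes. Of the 11, 7 were higher and 1 lower in high-marker cells in all 3 libraries, against 20.6% and 38.2% of all genes. Of the 9 members below the minimum, Timp1, an inhibitor of matrix proteases, measured 0.257, 2.06 and 18.6 CPM, and Spp1, osteopontin, 6.17, 1.24 and 6.06 CPM.

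The largest ratios brought in further genes. Mt2, a metal-binding metallothionein, measured 22.1 CPM (17.7 to 27.3), 49.0 (40.6 to 58.6) and 75.7 (64.9 to 87.8). Tnfrsf12a, the receptor for the cytokine TWEAK, measured 24.4, 28.4 and 64.0 CPM. Fgl2, a fibrinogen-like protein, measured 56.1, 77.8 and 125 CPM and was below 1 CPM in pericytes of each library. The ischemic library was the highest for all 3 genes. Adamts9, a protease of matrix proteoglycans, was highest after physical injury, at 53.5 CPM (46.5 to 61.3), 136 (122 to 152) and 94.3 (82.2 to 108).

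Among the genes lower after ischemic injury, Id2, an inhibitor of basic helix-loop-helix factors, measured 103 CPM (93.3 to 114) in the naïve library, 75.4 (64.8 to 87.1) after physical and 42.4 (34.4 to 51.7) after ischemic injury. The log2 ratio of ischemic to naïve was -1.26. Id2 belonged to the contractile end of the range, and its ratio was -1.62 within high-marker cells and 0.07 within low-marker cells, where it measured 10.5 CPM in the naïve library. Lrrtm3, a leucine-rich transmembrane protein, measured 133, 114 and 65.3 CPM, and its ratios within low-marker and high-marker cells were -1.15 and -0.99. Pdgfd, a PDGF ligand, measured 111 CPM (101 to 122), 167 (151 to 184) and 58.8 (49.4 to 69.6), highest after physical and lowest after ischemic injury. Eln followed the same order, at 118, 156 and 81.3 CPM.

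**Figure D4:**
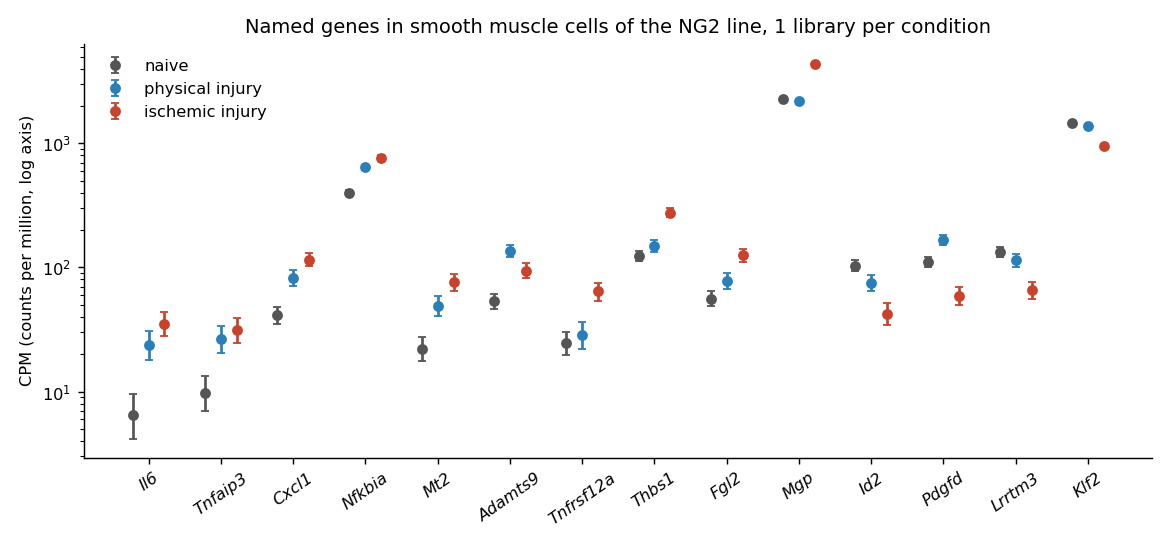
CPM (log axis) of 14 named genes in smooth muscle cells of the naïve, physical injury and ischemic injury libraries, with 95% exact Poisson intervals; each point is 1 library. The first 10 genes are above the naïve value after ischemic injury (Il6 35 against 6.43 CPM) and the last 4 are below it (Id2 42.4 against 103 CPM).

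Further named genes differed between the naïve library and 1 or both of the others. Crispld2, a secreted protein and one of the most specific genes of the cluster, measured 680 CPM (654 to 706) in naïve cells, 1240 (1197 to 1286) after physical and 855 (818 to 894) after ischemic injury. Pi15, a secreted peptidase inhibitor and also specific to the cluster, measured 54.0, 108 and 51.0 CPM. Both were highest after physical injury and had log2 ratios to naïve of 0.87 and 0.99, just inside 2-fold. Otud1, a deubiquitinase, measured 56.8, 24.7 and 37.2 CPM and Rgcc, a regulator of the cell cycle, 72.8, 35.4 and 57.1 CPM, and both were past 2-fold lower after physical injury. For Rgcc the log2 ratio was -1.02 (-1.40 to -0.69), and 1 cell held 50 of its 283 UMIs in the naïve library. Txnip, an inhibitor of thioredoxin, measured 254, 145 and 143 CPM in smooth muscle and 232, 109 and 129 in pericytes, so that the naïve library was the highest in both kinds of cell. Nrgn, neurogranin, a calmodulin-binding protein, measured 73.8, 39.9 and 32.4 CPM.

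The remaining lists held few genes past 2-fold, as did the whole table, where 99.6% of genes kept were within 2-fold. Their counts stand beside 44.0% and 47.3% of all genes kept above 0 after physical and ischemic injury, and 56.0% and 52.7% below 0. Pericyte markers in smooth muscle had medians of -0.44 and -0.14 after physical and ischemic injury, with 8 and 6 of the 10 kept below 0 (Rgs5 4314, 3250 and 4568 CPM), and summed to 7911, 5916 and 7798 CPM. Basement membrane genes had medians of 0.00 and -0.10 (14 kept) and interstitial matrix genes 0.14 and -0.08 (7 kept), with none past 2-fold. Col4a1, a chain of the main basement membrane collagen, measured 513, 578 and 531 CPM. Interferon and antigen presentation genes had medians of -0.03 and 0.26, with 3 and 9 of the 10 kept above 0, and their median in pericytes was 0.08 and 0.54. B2m, the light chain of class I molecules, measured 135 CPM (124 to 147), 117 (103 to 131) and 193 (175 to 212), highest after ischemic injury. Heat shock and unfolded protein genes (12 kept) had 0.16 and 0.22, with 11 and 10 above 0 and none past 2-fold. Of 16 hypoxia and glycolysis genes kept, with medians of 0.03 and 0.13, 1 was past 2-fold, namely Slc2a1, the glucose transporter GLUT1, after physical injury (17.7, 41.6 and 32.0 CPM), which was also under 20 CPM in the naïve library. Metallothionein, iron and oxidative stress genes (8 kept) had 0.14 and 0.13, with Mt2 past 2-fold after both injuries, and TGF-beta and YAP targets (18 kept) -0.00 and -0.07, with Id2 past 2-fold after ischemic injury. Only 4 of 17 cell cycle genes reached the minimum, with medians of 0.11 and 0.35. The 82 ribosomal protein genes kept had -0.02 and 0.14, with 31 and 70 above 0 and Rps27 past 2-fold lower after physical injury (54.0, 25.1 and 35.9 CPM). The 80 nuclear genes of oxidative phosphorylation had -0.04 and 0.08, with 27 and 63 above 0.

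Several of the largest ratios were also large in other cells of the same libraries. Cdk8, a kinase of the Mediator complex, measured 173, 691 and 1461 CPM in smooth muscle, 175, 928 and 1699 in pericytes and 268, 897 and 1297 in endothelial cells. Cmss1 measured 1153, 3255 and 4394 CPM in smooth muscle and 964, 3889 and 4783 in pericytes. In endothelial cells Cmss1 measured 1511, 4132 and 3971 CPM. Both genes were lowest in the naïve library in each kind of cell, and their ratios of ischemic injury to naïve were 3.07 and 1.93 in smooth muscle, 3.27 and 2.31 in pericytes and 2.27 and 1.39 in endothelial cells. Gm20594, higher after physical injury (54.3, 197 and 74.4 CPM), and Lars2, the mitochondrial leucyl-tRNA synthetase (288, 506 and 644 CPM), had log2 ratios to naïve of 1.75 and 1.14 in pericytes in the comparisons named, against 1.84 and 1.16 in smooth muscle and 1.48 and 0.48 in endothelial cells. Of the 8 genes at least 2-fold higher after physical injury that reached a mean of 20 CPM in pericytes, 4 were also past 2-fold there, and after ischemic injury 6 of 11. In pericytes 10 (0.174%) and 18 (0.313%) of the 5753 genes at this level in both kinds of cell were at least 2-fold higher. Of the genes lower in smooth muscle, 2 of 6 and 1 of 2 were also past 2-fold lower in pericytes, where 16 (0.278%) and 2 (0.0348%) of all were. The submitters' notes name the same version of the counting software for every library, whereas the study's methods give a range of versions. A difference in counting between libraries and the conditions therefore cannot be told apart for these genes.

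Some clock genes also differed alike in both kinds of mural cell. Dbp, an output factor of the circadian clock, measured 81.3, 15.6 and 44.6 CPM in smooth muscle, 379, 114 and 290 in pericytes and 122, 24.1 and 49.1 in endothelial cells. Nr1d1, the clock repressor REV-ERB-alpha, measured 84.3, 33.8 and 44.6 CPM in smooth muscle and 300, 130 and 193 in pericytes. Arntl, the activator BMAL1, had the opposite order, at 18.5, 32.1 and 26.8 CPM in smooth muscle and 15.8, 52.1 and 27.8 in pericytes. Of 10 clock genes, 6 reached the minimum. In smooth muscle 4 of these 6 lay below the naïve library after physical injury (Dbp and Nr1d1 past 2-fold) and 3 after ischemic injury (none past 2-fold), and 5 and 4 did so in pericytes. Of all genes kept, 56.0% and 52.7% lay below the naïve library in smooth muscle, 0.127% and 0.0795% past 2-fold, and 55.0% and 52.2% of those also at 20 CPM or more in pericytes did so there. Per1 measured 61.2, 61.8 and 74.0 CPM in smooth muscle. These genes were chosen after Dbp and Nr1d1 had come out among the largest ratios, and the hour of tissue collection was not used here.

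Immediate early genes had other ratios in pericytes than in smooth muscle after physical injury. The 17 kept in smooth muscle were within 2-fold of the naïve library after either injury, like 99.6% of all genes kept, with medians of -0.02 and -0.03. In pericytes the medians of these genes were -1.11 after physical and 0.27 after ischemic injury. The pericytes summed here include cluster 0, the activated pericytes of the study, a type for which it lists Jun as a marker. The share of cluster 0 in each library is not given here, and its part in these medians was not tested. Of the 14 at 20 CPM or more in pericytes, 8 were at least 2-fold lower there after physical injury, against 0.278% of the 5753 genes kept that reached this level. The difference between the kinds of cell was not tested. Fos measured 8472, 7413 and 8261 CPM in smooth muscle and 5125, 2118 and 5853 in pericytes. Atf3 measured 3193, 2044 and 2313 CPM in smooth muscle and 245, 55.4 and 280 in pericytes. Nr4a2, an orphan nuclear receptor, measured 300, 593 and 395 CPM in smooth muscle and at most 3.12 CPM in pericytes. The physical injury library was the lowest for Fos and Atf3 in pericytes by more than 2-fold, and in smooth muscle by less. Fos, Jun and related transcripts are also induced by tissue dissociation, and its part in these levels was not tested.

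**Figure D5:**
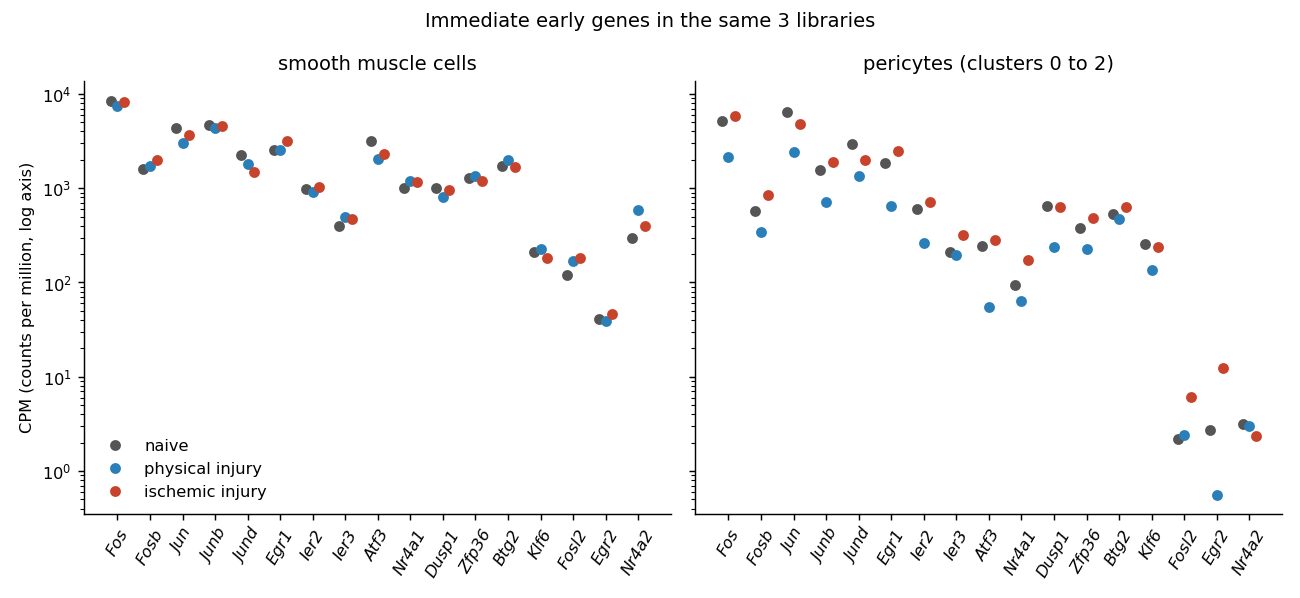
CPM (log axis) of 17 immediate early genes in smooth muscle cells (left) and pericytes (right) of the same 3 libraries; each point is 1 library. In smooth muscle the log2 ratios to the naïve library run from -0.64 (Atf3) to 0.98 (Nr4a2) after physical injury, while in pericytes the physical injury point is the lowest for 15 of the 17 genes (Fos 2118 against 5125 CPM in the naïve library).

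For some genes the ratio of ischemic injury to naïve was lower in smooth muscle than in pericytes, and naïve smooth muscle already carried them. Cdkn1a, the cell cycle inhibitor p21, measured 473, 578 and 648 CPM in smooth muscle and 1.33, 2.24 and 18.3 in pericytes. S100a6 measured 206, 261 and 331 CPM in smooth muscle and 1.33, 3.55 and 18.1 in pericytes. Dpysl3, a cytoskeletal adaptor, measured 167, 186 and 166 CPM in smooth muscle and 1.02, 2.05 and 6.90 in pericytes. In each of the 3 genes the pericyte value was highest after ischemic injury and stayed far below that of naïve smooth muscle. Isg15, from the same ranking, measured 69.9, 68.4 and 96.0 CPM in smooth muscle and 15.8, 43.1 and 71.8 in pericytes. Its pericyte value after ischemic injury was thus above that of naïve smooth muscle.

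Apart from the pericyte markers (7911, 5916 and 7798 CPM in sum), markers of other cell types were low in the cluster, and some differed between the libraries. The 10 endothelial markers summed to 15.7 CPM in the naïve library (Flt1 most abundant, Cdh5 and Tie1 at 0), 161 after physical and 58.0 after ischemic injury. In the physical injury library 390 UMIs of these markers were counted, of which 155 were in 1 cell and 94.6% in the 24 cells richest in them. Flt1, a VEGF receptor of endothelium, had the largest ratio after physical injury among genes that reached 50 CPM (9.77, 56.4 and 25.5 CPM, log2 ratio 2.41). Without the 10% of cells richest in markers of other types its ratio was 0.66. Flt1 is one of those markers, so these cells were chosen partly by Flt1 itself and a lower ratio was built in. The 8 oligodendrocyte markers summed to 152, 110 and 360 CPM in smooth muscle and 249, 167 and 496 in pericytes, with none at 0. Mal, a myelin proteolipid, measured 19.8, 21.4 and 48.4 CPM and Cnp, a phosphodiesterase of myelin, 18.5, 14 and 38.1 CPM in smooth muscle, and both were past 2-fold higher after ischemic injury. Of the microglial markers, the complement genes C1qa, C1qb and C1qc were at 0 in the naïve library and Csf1r and Tyrobp at 0 after physical injury. The 5 erythrocyte transcripts summed to 1.29, 11.9 and 3.46 CPM, the 7 fibroblast markers to 177, 187 and 177 CPM (mostly Col1a2), the 7 astrocyte markers to 4.89, 11.5 and 8.65 CPM and the 6 neuron markers to 0.771, 3.29 and 6.06 CPM. Without the 10% of cells richest in such markers, 57 of 65 ratios of named genes stayed within their counting intervals and all 48 list medians within counting error, whereas Ptgds, a prostaglandin D synthase, had a ratio of ischemic injury to naïve of 0.33 in place of 1.21.

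The pooled animals differed in sex-linked transcripts. Xist, expressed from the inactive X chromosome of females, measured 415, 474 and 251 CPM in smooth muscle and 590, 720 and 317 in pericytes. Ddx3y, from the Y chromosome, measured 45.8, 56.0 and 92.6 CPM in smooth muscle. Ddx3y was among the 19 genes higher and Tsix among the 5 lower after ischemic injury. Per the study's methods, tissue from as many females as males went into the pools, and the sex of a cell was not recorded in the annotation used here. Which animals gave the cells and the conditions cannot be told apart in these pools.

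The smooth muscle cells of the other reporter line, Tbx18-CreERT2/Ai14-flx under the same 3 conditions, numbered 63, 827 and 47 (cluster 1 of that line), with medians of 7834, 10561 and 2831 UMIs. Their Acta2 measured 8126, 13573 and 11620 CPM, and their Myocd 251, 273 and 197 CPM. Of the genes at least 2-fold higher in NG2 smooth muscle after ischemic injury and measured in that line, 4 of 14 were also at least 2-fold higher there (28.6% of the NG2 genes and 1.10% of 365 in the Tbx18 line, themselves 6.11% of the 5977 genes measured in both). After physical injury this held for 2 of 12 (16.7% and 1.55% of 129, themselves 2.16% of the genes). In the Tbx18 line Il6 measured 6.12, 11.4 and 0 CPM, and Thbs1 67.3, 178 and 36.6 CPM, from 47 shallow cells in the ischemic library. Mgp measured 1555, 1830 and 4894 CPM and S100a11 363, 595 and 993 CPM, with the ischemic library again the highest.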

How the data were processed

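Cortical cells were sorted for tdT and run on the 10x Genomics platform. The submitters' processing notes name Cell Ranger 7.0.0 for every library and the builds mm10 and GRCm38. The study's methods instead give a range of versions up to that one, without saying which library had which. The authors deposited unnormalized UMI counts, 1 value per cell and gene, for cells kept by the authors (methods: at least 200 genes, at most 12% mitochondrial, gene and UMI numbers no more than 2 SD from the library average). The authors' metadata also hold the percent of mitochondrial transcripts and Seurat cluster numbers from data integrated over the libraries of a line, which were used as given. No doublet caller was run here, and how the authors treated doublets is not given in the sources used here. Smooth muscle totals were 3889102 UMIs (naïve), 2428235 (physical injury) and 2311966 (ischemic injury), so that 3 counts equalled 0.771, 1.24 and 1.30 CPM. The libraries shared 2, 5 and 3 cell barcodes pairwise, none among smooth muscle cells.

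Counts were summed per library with Python 3.11.15, numpy 2.4.6 and scipy 1.17.1, and edgeR 4.0.16 served only for TMM factors in an alternative. With 1 library per condition there was no test, and "2-fold" means a log2 ratio past 1 with a pseudocount of 1 CPM. The calculation was tested on simulated data. Beyond the lists, genes were named by size: the 10 largest ratios each way for each injury against naïve and the 5 largest each way between the injuries, at 50 CPM or more in the higher library, the 15 most specific genes, and the 5 largest differences from pericytes each way. Mitochondrial genes, Gm42418 and AY036118 were left out of that naming. The cells, lists and comparisons were chosen with earlier results of these data known. Genes chosen after their values were seen are named as such. Values of some genes are not reported here.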

Additional observations from a re-analysis of the deposited data

Results flagged for a closer look

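In 7 genes reported here the log2 ratio went past 2-fold in opposite directions in smooth muscle of the 2 reporter lines, and none of these differences was tested. After ischemic injury against naïve, Cxcl1 had 1.47 in the NG2 line and -2.77 in the Tbx18 line, Ptgds 1.21 and -2.30, and Id2 -1.26 and 1.41. For ischemic against physical injury, Rgs16 had 1.21 and -1.93, Gm47283, a gene on the Y chromosome (Y:90784738-90816464 in GRCm38), 1.21 and -1.33, Grm7 -1.24 and 4.66, and Flt1 -1.11 and 3.07. Of these NG2 values, that of Cxcl1 stayed past 2-fold in each setting tried and the others did not. Within low-marker cells Id2 was 0.07, Rgs16 0.70 and Gm47283 0.95, and Ptgds was 0.33 without the cells richest in other markers and 0.08 within high-marker cells. Grm7 was 1.02 within high-marker cells. Flt1 was 0.59 without the cells richest in other markers and 0.07 within high-marker cells. Flt1 is itself one of the other markers, so its 0.59 is no independent check. Both genes were lower in high-marker than in low-marker cells of the injury libraries, so the ratios within high-marker cells rest on low levels. In the physical injury library a single cell held 23.9% of the Grm7 UMIs and 29.9% of the Flt1 UMIs. Sex-linked transcripts differed between the NG2 libraries, and their part in the Gm47283 value was not tested. The Tbx18 values rest on 63 naïve and 47 ischemic cells, with totals of 490034 and 218420 UMIs, so that 3 counts equalled 6.12 and 13.7 CPM.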

How the results depend on the processing

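Counts of genes past 2-fold depended on the minimum level and on depth. They are given here in the order higher and lower after physical injury, higher and lower after ischemic injury, and higher and lower for ischemic against physical injury, beside 15, 8, 19, 5, 13 and 18. With no minimum level they were 377, 402, 446, 444, 556 and 545, and with a mean of at least 50 CPM 5, 2, 10, 2, 4 and 7. With every cell thinned to 2000 UMIs they were 64, 117, 70, 101, 132 and 119. With the filters of the study's methods applied again, the counts that moved were 25 and 18 (physical injury), 11 lower (ischemic injury) and 21 higher (ischemic against physical). With the mean CPM of single cells they were 30 and 12 (ischemic injury) and 33 higher (ischemic against physical). A pseudocount of 5 CPM gave 3 and 2 lower genes after physical and ischemic injury, totals without mitochondrial and ribosomal protein genes gave 9 lower after ischemic injury, and leaving out the 5% of cells with the most UMIs gave 11 lower for ischemic against physical injury. The other counts, including all under TMM factors and without the 10% of cells richest in other markers, stayed within 1.5 times. The contractile median for ischemic injury was 0.04 under the methods' filters and -0.17 against naïve cells of the naïve smooth muscle cluster only, an alternative added after the data were seen, as were those within low-marker and high-marker cells. The share of smooth muscle was 12.7%, 16.7% and 16.8% of mural cells, 9.49%, 10.2% and 8.37% of sorted cells under the methods' filters (physical injury then the highest), and 8.78% of ischemic cells when any cell with at least 3 of the 6 markers was counted. Thinning moved the pericyte marker medians along the range to -2.78, -3.27 and -2.95. Direction reversed for Id2 (0.07 within low-marker cells, ischemic against naïve), Grm7 (1.02 within high-marker cells, ischemic against physical) and Flt1 (ischemic against physical, 0.59 without the cells richest in other markers and 0.07 within high-marker cells). The cells left out for the 0.59 were chosen partly by Flt1 itself, and the Grm7 and Flt1 ratios within high-marker cells rest on low levels. Among 65 ratios of named genes, 26 moved by more than their counting error under thinning, 14 with the mean CPM of single cells, 6 under the methods' filters, and 31 and 30 within low-marker and high-marker cells, as did 9 of 48 list medians under thinning. The causes were not tested. No paired analysis was possible because each condition has 1 library, and for the same reason no library could be left out.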
